A study of Homo sapiens with 14 samples.

Results

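The genes described here are 8 receptor tyrosine kinase genes, PDGFRA, PDGFRB, KIT, IGF1R, EGFR, ERBB2, MET and NTRK3, together with IGF2, the gene of a growth factor that signals through IGF1R. These 9 genes were chosen by name out of 20033 protein-coding genes. Every peak of 9 deposited ChIP-seq peak lists that lay in a gene's span or within 20 kb of either side was collected on GRCh38. Positions within 1 kb of either end of a span were called its ends, the body was the rest of the span, and the flank was the rest of the 20 kb.

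All libraries came from HS-SY-II, an established synovial sarcoma cell line whose genotype the labels give as WT, and which carried an HA-tagged SS18::SSX fusion. Chromatin was precipitated with an antibody to GLTSCR1 from cells given DMSO vehicle, or WA-68 at 100 nM for 12, 24, 48 or 96 h. An anti-HA antibody was used for the fusion in cells given DMSO, or the same dose of WA-68 for 12, 24 or 48 h. WA-68 is a PROTAC, a molecule that brings a target protein to the ubiquitin system, and its target is BRD9. The labels give DMSO no time, so time in culture and time with WA-68 cannot be told apart. Input chromatin (5 libraries) was not analysed here. With 1 library in each group, all of 1 cell line, there was no replicate error, no test between conditions and no p-value. How the tag was introduced, and whether at the gene's own copy, is not given in the sources used here.

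Receptor tyrosine kinases are membrane proteins that pair up when a growth factor binds outside the cell, phosphorylate each other inside it, and pass the signal to the RAS to MAPK and PI3K to AKT routes. PDGFRA, PDGFRB and KIT belong to 1 structural class, EGFR and ERBB2 to the epidermal growth factor receptor family, and IGF1R to the insulin receptor family. MET is the receptor for hepatocyte growth factor, and NTRK3 is the receptor for neurotrophin 3. Several of these kinases have been studied as drug targets in sarcomas, and IGF2 with IGF1R has been described as a growth loop in synovial sarcoma. BRD9 and GLTSCR1 are subunits of GBAF, one of the BAF chromatin remodelling complexes, while SS18::SSX enters BAF complexes through its SS18 part. Peak lists show where these proteins were found on chromatin and measure no expression.

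The DNA just before the starts is shown first, because the patterns of KIT, EGFR, PDGFRA and MET described below are patterns of calls at the start. The RefSeq promoter table (GRCh38.p14) held 10 entries for 8 of the 9 genes, and IGF2 was not among them. The 250 bases before the start are printed 5′ to 3′ for the 4 receptor genes with a region of both antibodies at an end or in the body in DMSO, and for MET and NTRK3, which were chosen after their values were seen. Capitals mark the GC box GGGCGG or its reverse complement CCGCCC, searched on both strands; the AP-1 motif TGACTCA or TGAGTCA was searched too and was in none of these 6.
PDGFRA, chr4:54229043-54229292, plus strand: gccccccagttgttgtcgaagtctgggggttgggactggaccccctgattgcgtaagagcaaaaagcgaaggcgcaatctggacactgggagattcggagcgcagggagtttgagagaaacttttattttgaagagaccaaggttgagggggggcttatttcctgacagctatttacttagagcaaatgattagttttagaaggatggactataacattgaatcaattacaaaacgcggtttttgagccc
KIT, chr4:54657707-54657956, plus strand: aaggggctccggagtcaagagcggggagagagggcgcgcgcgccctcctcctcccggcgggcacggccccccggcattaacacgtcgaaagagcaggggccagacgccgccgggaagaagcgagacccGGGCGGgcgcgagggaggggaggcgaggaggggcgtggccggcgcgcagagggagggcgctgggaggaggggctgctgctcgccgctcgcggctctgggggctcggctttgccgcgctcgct
EGFR, chr7:55018767-55019016, plus strand: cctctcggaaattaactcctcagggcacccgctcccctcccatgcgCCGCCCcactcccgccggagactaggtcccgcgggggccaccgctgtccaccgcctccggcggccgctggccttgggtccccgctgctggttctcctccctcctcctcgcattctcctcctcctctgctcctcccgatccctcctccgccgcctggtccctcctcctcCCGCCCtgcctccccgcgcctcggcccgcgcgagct
IGF1R, chr15:98648289-98648538, plus strand: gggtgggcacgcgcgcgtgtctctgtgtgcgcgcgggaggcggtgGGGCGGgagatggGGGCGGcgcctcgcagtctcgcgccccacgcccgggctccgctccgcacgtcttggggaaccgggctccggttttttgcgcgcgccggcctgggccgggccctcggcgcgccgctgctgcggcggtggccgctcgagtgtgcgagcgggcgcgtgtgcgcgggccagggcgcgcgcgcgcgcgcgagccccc
MET, chr7:116671946-116672195, plus strand: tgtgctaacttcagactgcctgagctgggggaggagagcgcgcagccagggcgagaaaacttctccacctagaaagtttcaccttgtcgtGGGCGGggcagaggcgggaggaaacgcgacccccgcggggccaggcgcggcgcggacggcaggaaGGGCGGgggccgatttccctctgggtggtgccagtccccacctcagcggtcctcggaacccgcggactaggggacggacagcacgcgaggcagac
NTRK3, chr15:88256740-88256989, minus strand: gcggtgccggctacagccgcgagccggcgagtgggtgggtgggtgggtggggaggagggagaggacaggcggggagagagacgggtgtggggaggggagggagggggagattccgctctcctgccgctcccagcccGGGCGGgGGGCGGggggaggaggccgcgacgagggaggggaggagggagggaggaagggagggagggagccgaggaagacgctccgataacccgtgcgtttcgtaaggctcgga
The printed PDGFRA window held 8 CG dinucleotides and no GC box, while the IGF1R window held 48 CG and 2 GC boxes. The windows of KIT, EGFR, MET and NTRK3 held 34, 25, 24 and 23 CG, with 1 GC box in KIT and 2 in each of the other three. Of all 35116 promoters in the table, 42.6% held a GC box and 4.2% the AP-1 motif, and the median was 11 CG. MET and NTRK3 held similar numbers of CG and GC boxes. Regions of 7 lists overlapped the MET window by 1 bp or more, and no list had a region over the NTRK3 window. Some covered only a part: the fusion region of 48 h began at 116672175, and the GLTSCR1 region of 96 h ended at 116671999. Over the KIT and EGFR windows no GLTSCR1 list had a region, while 3 and 4 fusion lists did. The PDGFRA window had regions of 4 GLTSCR1 lists and 1 fusion list. The IGF1R window had those of 1 GLTSCR1 list and 3 fusion lists. A link between these letters and the calls was not tested. A matching motif is only a description of these letters. The ERBB2 window held 23 CG and no GC box, and the PDGFRB window held 9 CG and 1 GC box. A window before another EGFR start inside the gene, chr7:55109589-55109838 on the plus strand, had 1 CG and 2 AP-1 motifs, and no list had a region over it. PDGFRA too had another start inside the gene. The window before it, chr4:54233710-54233959 on the plus strand, had 25 CG and 2 GC boxes, and no list had a region over it. Below, the start of PDGFRA or EGFR means the one at the end of the span.

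Regions were called at 7 of the 9 genes, and their ends fell into distinct patterns. PDGFRA carried GLTSCR1 at its start in all 5 GLTSCR1 lists and the fusion in DMSO alone. KIT and EGFR carried the fusion in all 4 fusion lists and GLTSCR1 in DMSO alone. IGF1R and IGF2 carried both in most lists, and MET carried both after WA-68 but neither in DMSO. ERBB2 had GLTSCR1 at its start in DMSO and at 12 h. PDGFRB and NTRK3 had no region in any list. For every receptor gene the end called was the start of the gene, never the other end.

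GLTSCR1 was at an end of 6 of the 9 genes in DMSO, beside 31.1% of all protein-coding genes. The 12 h list had 5 (26.6% of all genes), the 24 h list 4 (14.7%), the 48 h list 4 (11.1%) and the 96 h list 3 (15.2%). The fusion had an end region at 5 of the 9 genes in DMSO (19.3% of all genes), 4 at 12 h (18.6%), 5 at 24 h (16.6%) and 5 at 48 h (18.6%). In all 9 lists the share of these genes lay above that of all genes, although 1 gene more or fewer moves such a share widely. All lists together held 40 separate sites in the loci, joined where regions overlapped. Of these, 20 had both antibodies, 7 GLTSCR1 alone and 13 the fusion alone. Joined sites were not counted over the genome, so whether this split is unusual cannot be told. Regions were joined across all lists, so a site with both antibodies need not have them at the same time or position. An IGF2 site (2156468 to 2157267) had GLTSCR1 at 12 and 96 h and the fusion at 24 and 48 h. IGF1R had 12 of the 40 sites, IGF2 8, MET 6, KIT 4, EGFR 4, PDGFRA 3 and ERBB2 3.

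**Figure D1:**
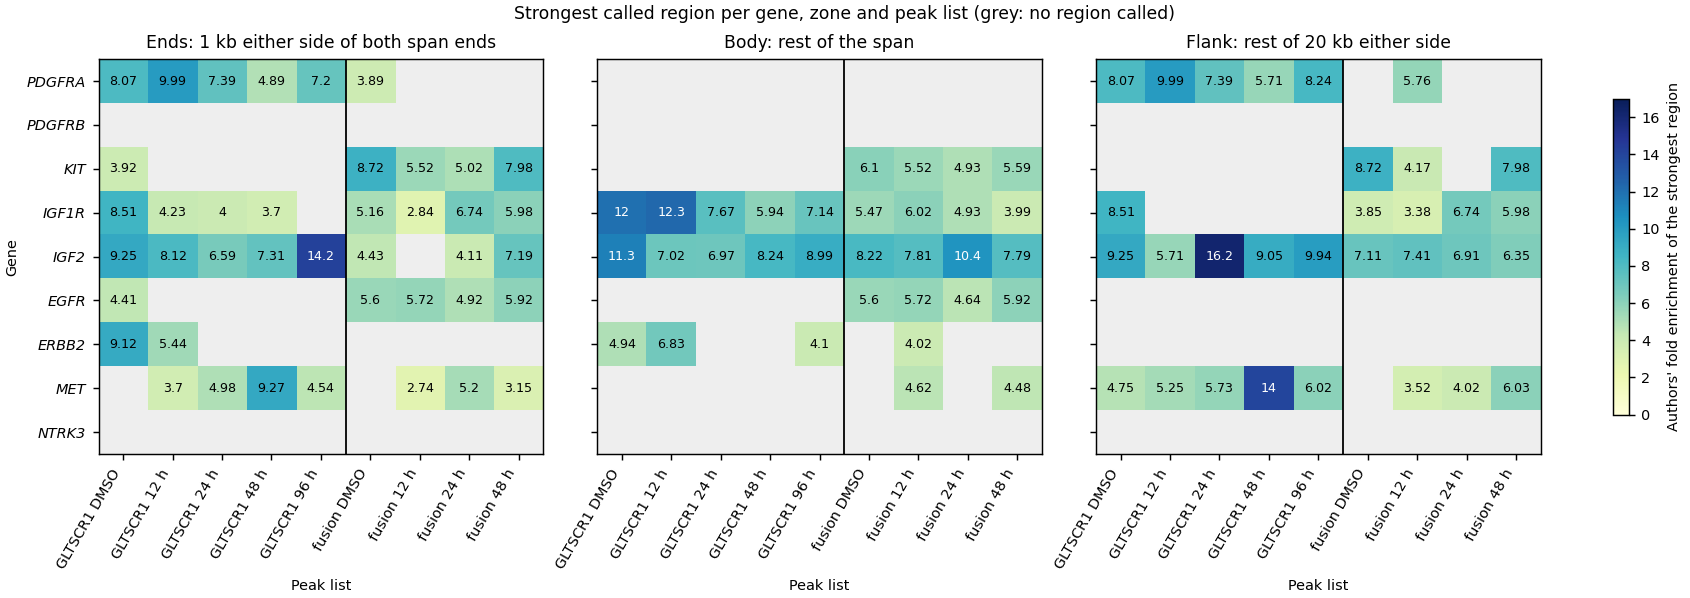
Strongest called region for each of the 9 genes (rows) and 9 peak lists (columns) at the ends, in the body and in the flank. Numbers and colours give the authors' fold enrichment, a linear ratio within 1 list, and grey means no region called; PDGFRB and NTRK3 are grey throughout, and MET is grey at its ends in both DMSO columns.

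Folds below are the authors' enrichment of a summit over background. They can be ranked within a list, but a difference between lists does not show a rise or fall, because read depth and background differ and the depth is unknown. The fold of a gene's end is that of the strongest region touching the 1 kb window, whose summit can lie outside it. The percentile of a region is its rank by fold, counted from the lowest, in percent of the regions of its own list. Equal folds share their mean rank. A missing region means that the signal did not reach the threshold of the peak caller, and says nothing about absence of the protein.

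PDGFRA, the alpha receptor for platelet-derived growth factor (chromosome 4, 54229293 to 54298245), had GLTSCR1 folds at its start of 8.07 in DMSO and 9.99, 7.39, 4.89 and 7.20 at 12, 24, 48 and 96 h. The percentiles of these regions were 87.8, 94.9, 86.9, 46.3 and 83.9 in the same order. It was thus among the stronger GLTSCR1 regions in every list but the one at 48 h. The fusion was called there in DMSO only, with a fold of 3.89, percentile 27.6 and −log10 q of 3.97, and with −log10 q of at least 5 required this call is lost. In DMSO 1 GLTSCR1 region with 4 summits ran from −2227 to 270 bp around the start, a width of 2498 bp. At 12 h it was replaced by regions of 840 and 439 bp, and in the 24 h list by 935 and 706 bp. The 96 h list had regions of 386 and 240 bp there. The 48 h list had 382 bp upstream and 227 bp inside the gene, where DMSO had a separate region of 349 bp. The strongest summit stayed between 1003 and 1194 bp upstream of the start in the 5 lists.

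A further PDGFRA site lay about 11.4 kb upstream of the start (chromosome 4, 54217635 to 54218145). GLTSCR1 was called there in all 5 lists, with folds of 7.15 in DMSO and 5.98, 6.69, 5.71 and 8.24 later. The fusion was called there at 12 h only, with a fold of 5.76. PDGFRA and IGF2 were the 2 members with a GLTSCR1 end region in all 5 lists, a pattern held by 6.29% of all genes. With windows of 500 bp IGF2 loses its 12 h call. With windows of 3 kb IGF1R and MET reach all 5 lists too. PDGFRB, the beta receptor for the same growth factor family (chromosome 5, 150113839 to 150155845), stood apart from PDGFRA: no region of any list lay in its span or flanks, and the nearest one was 202 to 458 kb away, depending on the list.

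KIT, the receptor for stem cell factor (chromosome 4, 54657957 to 54740715), had fusion folds at its start of 8.72 in DMSO and 5.52, 5.02 and 7.98 at 12, 24 and 48 h, at percentiles 91.6, 71.4, 58.6 and 89.2. The 12 h summit lay 1922 bp inside the gene and the others 278 to 844 bp upstream. Its GLTSCR1 region was called in DMSO only, with a fold of 3.92 at percentile 21.4. That call was a weak one, with −log10 q of 3.30, and it is lost with −log10 q of at least 5 or with lists of equal length. Fusion regions spread from the start into the gene. In DMSO there were 5 of them, covering 4.31 kb, the last ending 5717 bp inside. A site from 54663003 to 54663914 was called in all 4 fusion lists, with folds of 4.09, 5.36, 4.93 and 4.41. No GLTSCR1 list had a region in the body of KIT.

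EGFR, the receptor for epidermal growth factor (chromosome 7, 55019017 to 55211628), showed the same calls as KIT. Fusion folds at its start were 5.60 in DMSO and 5.72, 4.92 and 5.92 later, at percentiles 70.8, 74.4, 56.7 and 74.1. GLTSCR1 was called in DMSO only, with a fold of 4.41 and percentile 35.5, and lists of equal length lose the call. The lncRNA gene LOC105375284 overlaps the start site, so a region there cannot be given to EGFR alone. The fusion regions at the start were 2316 bp wide in DMSO and 2211, 1019 and 2726 bp later, against 626 bp for the GLTSCR1 region, which lay inside the fusion region of DMSO. A body site about 42 kb into the gene (55060651 to 55061719) had the fusion in DMSO, at 12 h and at 48 h, with folds of 4.91, 3.62 and 4.5.

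KIT, EGFR and IGF1R were the 3 members with a fusion end region in all 4 lists, beside 8.92% of all genes. For IGF1R the 12 h fusion region was weak (fold 2.84, percentile 2.15, −log10 q 3.38), and 3 fusion lists are left with −log10 q of at least 5, with lists of equal length, or with windows of 500 bp, which lose the 24 h call instead. KIT and EGFR were the 2 with a GLTSCR1 end region in DMSO and in no later list, beside 6.79%. Both conditions together, a fusion region at every time and GLTSCR1 in DMSO alone, held for 156 genes (0.779%). KIT and EGFR were 2 of these. The pattern follows the calls of these 2 genes, so its small share does not measure how unusual they are. Both GLTSCR1 calls of DMSO had folds under the median of their list (4.94).

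**Figure D2:**
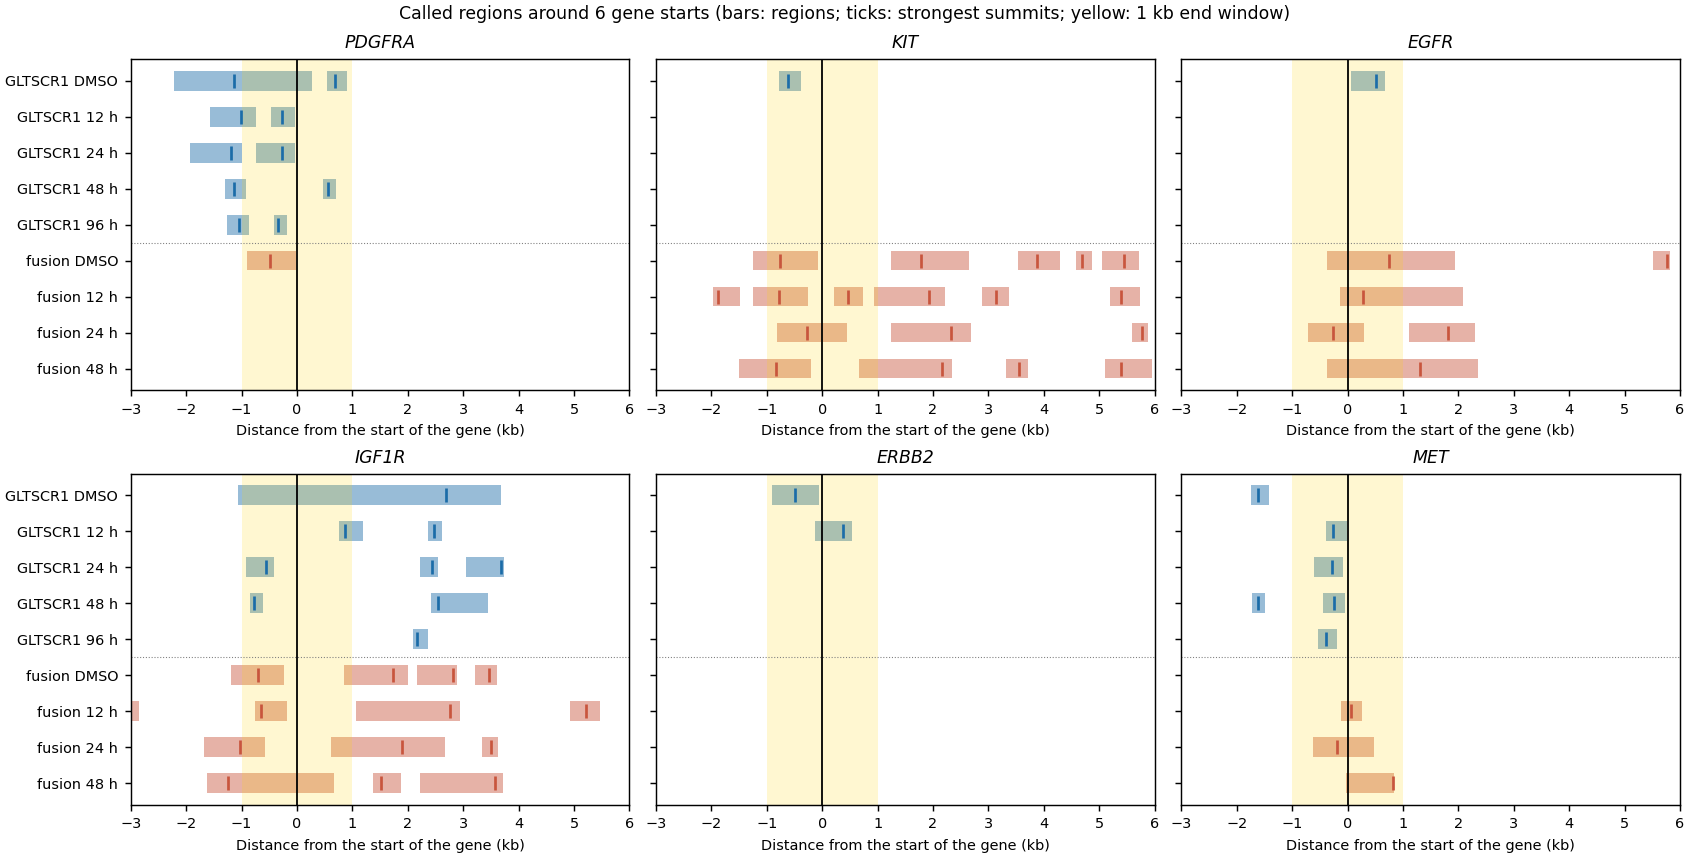
Called regions around the starts of PDGFRA, KIT, EGFR, IGF1R, ERBB2 and MET, from 3 kb before to 6 kb after the start (horizontal axis, kb), with 1 line for each of the 9 lists. Bars are regions, ticks their strongest summits and the yellow band the 1 kb window; at PDGFRA and IGF1R a wide DMSO bar of GLTSCR1 gives way to shorter bars in the later lists, and at MET the band is empty in both DMSO lines.

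IGF1R, the receptor for IGF1 and IGF2 (chromosome 15, 98648539 to 98964530), had the most sites of the 9 genes. At its start GLTSCR1 folds were 8.51 in DMSO and 4.23, 4.00 and 3.70 at 12, 24 and 48 h, at percentiles 89.7, 30.8, 25.2 and 12.1. These summits lay at different positions: the one of DMSO was 2684 bp inside the gene, and the later ones were at 867, −566 and −780 bp. Near the DMSO summit, regions with summits 2429 to 2536 bp inside the gene had folds of 5.46 (percentile 62.7) at 12 h, 3.75 (18.1) at 24 h and 5.94 (68.6) at 48 h. At 96 h no region lay within 1 kb of the start, but one of 280 bp with a fold of 3.32 began 2089 bp inside, so windows of 3 kb give a call in all 5 lists. Fusion folds at the start were 5.16 in DMSO and 2.84, 6.74 and 5.98 later. In DMSO 1 GLTSCR1 region with 8 summits ran 4743 bp from −1069 to 3673 bp. In the later lists the regions over the same stretch were 227 to 1031 bp wide. The lncRNA gene IRAIN, an antisense neighbour, overlaps this site, so a region here cannot be given to IGF1R alone.

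A pair of sites deep in the IGF1R body carried GLTSCR1 in all 5 lists. The one from 98799386 to 98801770, about 151 kb from the start, had folds of 12.0 in DMSO and 9.17, 5.89, 4.55 and 7.14 later. The one from 98865346 to 98866799, about 217 kb from the start, had 7.72 in DMSO and 12.3, 7.67, 4.25 and 4.11 later. Each was also in 3 of the 4 fusion lists, with fusion folds from 3.08 to 5.24. In the GLTSCR1 lists of DMSO, 12, 24 and 96 h the strongest region of the locus was at one of these sites. At 48 h it was the region of fold 5.94 near the start. Another site (98852256 to 98853725), which the lncRNA gene LOC124903561 overlaps, was in every GLTSCR1 list but that of 12 h. Its GLTSCR1 folds were 9.18, 5.34, 4.37 and 6.59, and the fusion list of DMSO had it too (3.67).

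IGF2 (chromosome 11, 2129117 to 2149566) had regions of both antibodies at its upper end, in its body and beyond. GLTSCR1 folds at the upper end were 9.25 in DMSO and 8.12, 6.59, 7.31 and 14.2 later, at percentiles 92.3, 89.5, 80.6, 84.2 and 98.3. The 5 summits lay within 727 to 787 bp above the end of the span, so that the 5 positions nearly coincided. Fusion folds there were 4.43 in DMSO, 4.11 at 24 h and 7.19 at 48 h, with no end region at 12 h. Their summits lay at −179 to 132 bp from the end of the span, lower than those of GLTSCR1.

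In the body of IGF2 the strongest GLTSCR1 folds were 11.3 in DMSO and 7.02, 6.97, 8.24 and 8.99 later, and those of the fusion 8.22, 7.81, 10.4 and 7.79. The GLTSCR1 region that gave the first of these was 4113 bp wide with 6 summits in DMSO; the strongest body regions of the later lists, at the same site, were 844 to 1527 bp wide. The fusion covered 12.3 kb of the locus in DMSO and 10.2, 13.5 and 14.2 kb later, while GLTSCR1 covered 10.3 kb in DMSO and 2.50, 3.40, 3.18 and 3.62 kb later. IGF2 held 3 of the 4 joined sites that were in all 9 lists, and IGF1R held the other. The share of such sites over the genome was not computed. At the IGF2 site from 2146954 to 2150614 the 12 h regions did not overlap: the fusion ended at 2148485 and GLTSCR1 began at 2150206. A flank site just above the gene (2151179 to 2152381) was also in all 9 lists. It had GLTSCR1 folds of 7.83, 5.66, 16.2, 9.05 and 9.94 and fusion folds of 4.52, 4.54, 4.23 and 3.86. The read-through gene INS-IGF2 overlaps the body sites, the upper-end site and every flank site but the farthest. The antisense gene IGF2-AS overlaps the body and upper-end sites. INS, one of the ligands below, overlaps the flank sites from 2160017 to 2160366 and from 2160715 to 2161123. The farthest flank site overlaps TH, the gene of tyrosine hydroxylase. None of these regions can therefore be given to IGF2 alone.

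**Figure D3:**
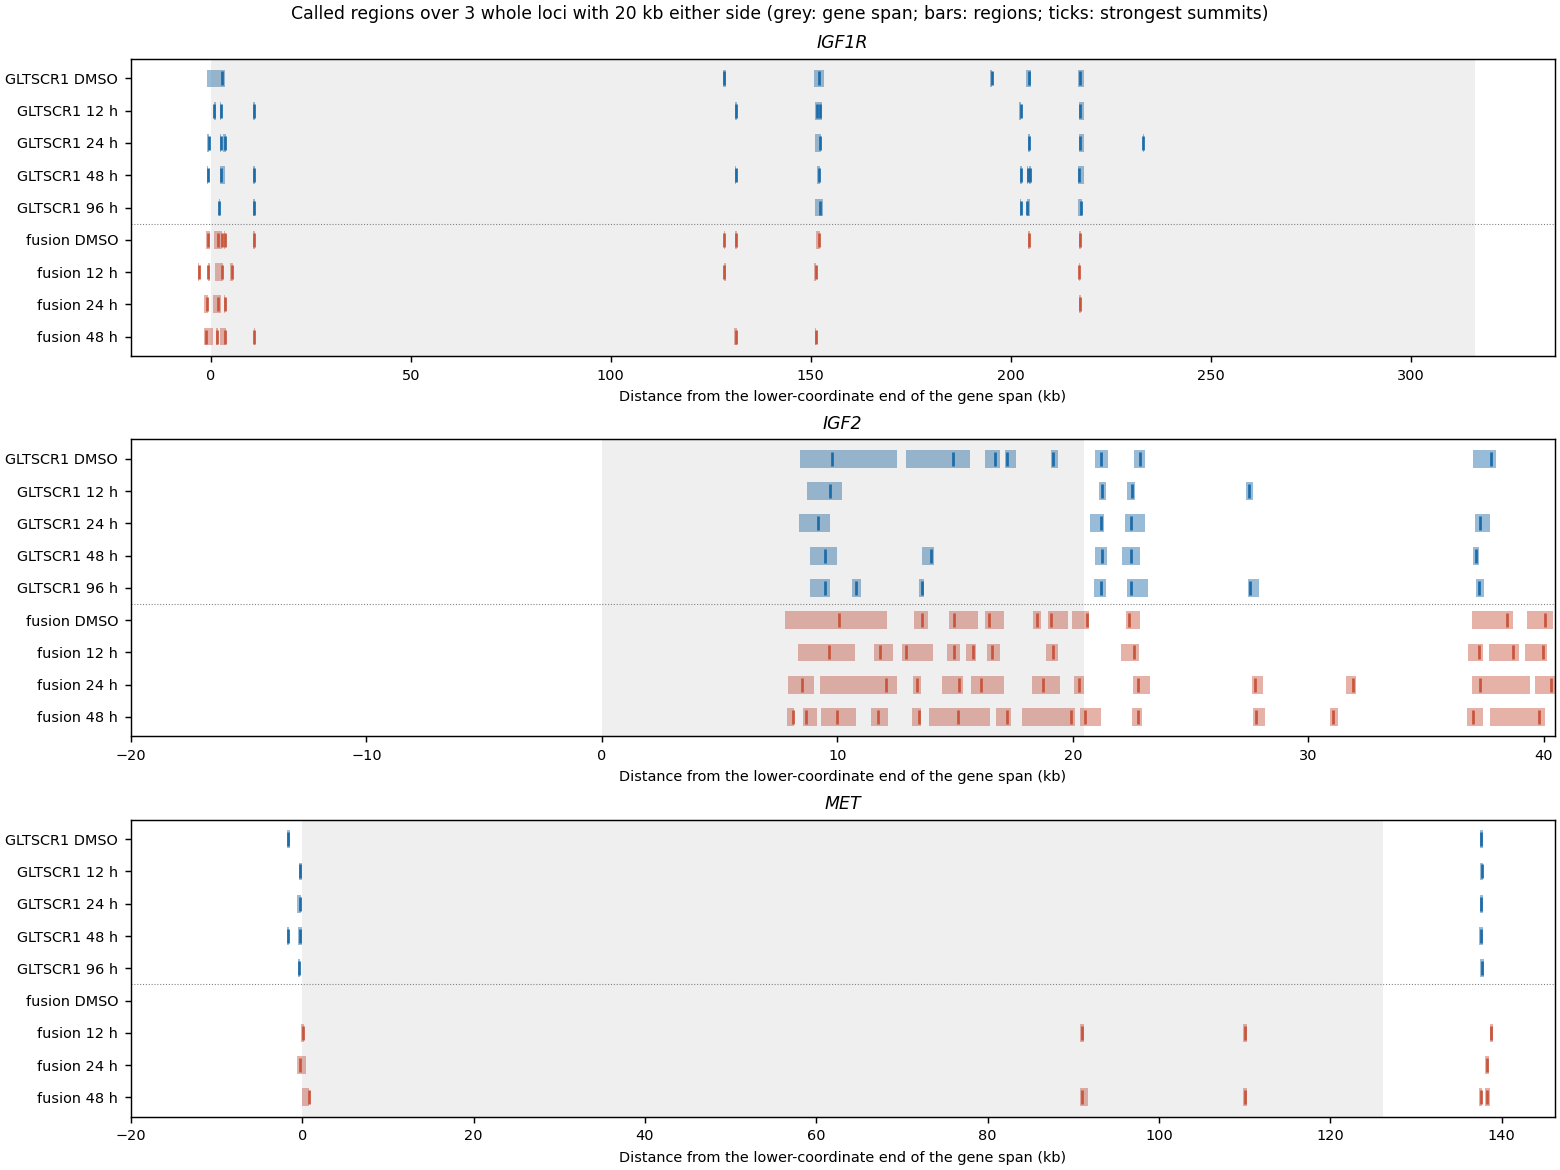
Called regions over the whole loci of IGF1R, IGF2 and MET, by distance from the lower end of the span (kb); the grey band is the span, bars are regions and ticks strongest summits. At IGF2 the fusion fills more of the body than GLTSCR1 in the later lists, and at MET the fusion lines of 12 h and 48 h carry body regions that the DMSO line lacks.

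ERBB2, a receptor that pairs with other members of the EGFR family and has no known ligand (chromosome 17, 39688094 to 39728658), had GLTSCR1 at its start in DMSO with a fold of 9.12 (percentile 91.9) and at 12 h with 5.44 (percentile 62.3). No GLTSCR1 list of 24, 48 or 96 h had an end region. The 12 h region lay from −131 to 539 bp and the DMSO region from −914 to −55 bp, so they overlapped by little. PGAP3, a neighbouring gene, overlaps the same site. In the body the strongest GLTSCR1 regions had folds of 4.94 in DMSO, 6.83 at 12 h (percentile 81.3) and 4.10 at 96 h, and no GLTSCR1 region was called there at 24 or 48 h. The only fusion region of the locus, at 12 h with a fold of 4.02, overlapped the 12 h GLTSCR1 body region. No fusion list had a region at the ends, so ERBB2 was the member with GLTSCR1 at its start and the fusion there in no list.

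MET (chromosome 7, 116672196 to 116798377) was the reverse case. At its start neither antibody had a region in DMSO. GLTSCR1 folds were 3.70, 4.98, 9.27 and 4.54 at 12, 24, 48 and 96 h, at percentiles 15.3, 53.5, 93.0 and 38.9. Fusion folds were 2.74, 5.20 and 3.15 at 12, 24 and 48 h, at percentiles 1.27, 62.9 and 5.01. The 4 GLTSCR1 summits lay 250 to 388 bp upstream of the start. The 48 h GLTSCR1 region was thus among the strongest of its list, both 24 h regions lay just above the middle of theirs, and the other 4 lay below it.

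Of all genes, 45 (0.225%) had no GLTSCR1 end region in DMSO and one in every later list, and 182 (0.909%) had the same pattern for the fusion. MET was in both groups, as was 1 other gene, ZCCHC2, together 0.00998% of all genes. The 2 genes were 4.44% of the first group and 1.10% of the second. These patterns follow the calls of MET itself, so their small shares do not measure how unusual MET is. The pattern at MET rests on the settings. With windows of 3 kb GLTSCR1 is called in DMSO, from a region of fold 4.75 at −1750 to −1425 bp that was also present at 48 h (6.19). With −log10 q of at least 5 the calls of GLTSCR1 at 12 h and of the fusion at 12 and 48 h are lost, and lists of equal length lose both 12 h calls.

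Away from its start, MET had a GLTSCR1 site about 11.5 kb beyond the end of the gene (116809564 to 116810085). It was in all 5 lists, with folds of 4.03 in DMSO and 5.25, 5.73, 14 and 6.02 later, and in the fusion list of 48 h (6.03). The 48 h region ranked at percentile 98.4 and the DMSO region at 24.9. In the body the fusion was called near 91 kb and 110 kb from the start at 12 h (4.62 and 3) and at 48 h (4.48 and 4.12). The fusion list of DMSO held no region anywhere in the MET locus, against 4, 2 and 5 regions at 12, 24 and 48 h. The GLTSCR1 regions at the start of MET and beyond its end both ranked highest in the 48 h list. The lncRNA gene COMETT overlaps the 2 sites at the start of MET.

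NTRK3 (chromosome 15, 87859751 to 88256739), the longest of the 9 genes, had no region in any list; the nearest lay 220 to 361 kb away. Of all genes 31.7% had no region of any list in the locus, of the 7417 genes with a span of 40 kb or more 26.3%, and of the 773 genes of 300 kb or more 28.2%. PDGFRB and NTRK3 were thus like many other long genes. These span classes were chosen after the values were seen. Of the 8 members of 40 kb or more, 2 had a GLTSCR1 region in the body in any list (39.2% of such genes), and 5 had one of the fusion (30.1%). In the flank 3 had GLTSCR1 (36.5%) and 4 the fusion (27.5%).

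The borders of the loci left some regions out. The closest outside 20 kb were at 20.4 kb for IGF2 (fusion at 24 h, fold 4.23), 22.4 kb for IGF1R (fusion at 12 h, 4.00) and 24.7 kb for PDGFRA (GLTSCR1 at 96 h, 8.51). ERBB2 had one at 24.7 kb (fusion in DMSO, 4.99). For EGFR, MET and KIT the closest lay 41.7, 64.3 and 83.9 kb away.

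Together the 9 loci held 24 GLTSCR1 regions in DMSO and 19, 16, 20 and 19 later, and 29 fusion regions in DMSO and 33, 23 and 31 later. For GLTSCR1 the length called differed more between DMSO and later lists than the count did: 28.2 kb in DMSO and 11.1, 11.8, 10.3 and 10.4 kb later. That was 39.3%, 42.0%, 36.4% and 36.9% of the DMSO length, beside 66.2%, 62.5%, 51.0% and 61.2% over the genome. For IGF1R the length was 11.2 kb in DMSO and 4.64 kb in the 12 h list, and for IGF2 10.3 and 2.50 kb; these 2 genes made up most of the total. For the fusion the lengths were 27.0 kb in DMSO and 25.0, 24.2 and 30.3 kb later, which was 92.8%, 89.7% and 113% of DMSO, beside 107%, 89.3% and 98.3% over the genome. Length called can also differ with read depth, which is unknown here, and its part was not tested.

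Of the 24 GLTSCR1 regions of DMSO in the loci, 11 overlapped a region at 12 h, or 45.8% (exact Clopper-Pearson 95% interval 25.6 to 67.2), beside 55.8% over the genome. The 24 h list gave 45.8% too (25.6 to 67.2), beside 47.6% over the genome. The 48 h list gave 58.3% (36.6 to 77.9), beside 43.2%, and the 96 h list 54.2% (32.8 to 74.4), beside 48.6%. All 4 intervals, which cover counting error only, include the share of the genome. Of these 24 regions, 9 (37.5%, 18.8 to 59.4) were in every later list, beside 26.7% over the genome. Another 7 (29.2%, 12.6 to 51.1) were in no later list, beside 26.0%, among them the only DMSO regions of KIT and EGFR.

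Of the 29 fusion regions of DMSO, the 12 h list overlapped 62.1% (42.3 to 79.3), beside 72.3% over the genome. The 24 h list overlapped 65.5% (45.7 to 82.1), beside 64.7%, and the 48 h list 72.4% (52.8 to 87.3), beside 68.8%. In every later list were 51.7% (32.5 to 70.6), beside 50.8%, and in none 17.2% (5.85 to 35.8), beside 14.3%. IGF2 weighed heavily in these: all 10 of its fusion regions were called at 24 and 48 h and 8 of 10 at 12 h. Without the IGF2 locus the shares were 52.6%, 47.4% and 57.9%. PDGFRA lay at the other end, since its only fusion region of DMSO was called at no later time.

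Regions of the 2 proteins overlapped in part of the loci. In DMSO, 14 of the 24 GLTSCR1 regions overlapped a fusion region, or 58.3% (36.6 to 77.9), beside 59.3% over the genome. The 12 h lists gave 47.4% (24.4 to 71.1), beside 55.2%. The 24 h lists gave 50% (24.7 to 75.3), beside 54.1%, and the 48 h lists 50% (27.2 to 72.8), beside 66.7%. Seen from the fusion, 62.1% (42.3 to 79.3) of its regions overlapped a GLTSCR1 region in DMSO, beside 36.2% over the genome. Without IGF1R and IGF2 the DMSO share was 33.3%, or 3 of 9 regions. The later shares were 24.2% (11.1 to 42.3), 39.1% (19.7 to 61.5) and 35.5% (19.2 to 54.6), beside 24.2%, 26.6% and 25.3%, so the shares over the genome were lower after DMSO too. IGF1R and IGF2 supplied 11 of the 14 shared GLTSCR1 regions of DMSO, and ERBB2 and MET none. In the 41 overlapping pairs of all times the strongest summits were a median of 234 bp apart, from 0 to 1886 bp, with 21 pairs within 250 bp.

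**Figure D4:**
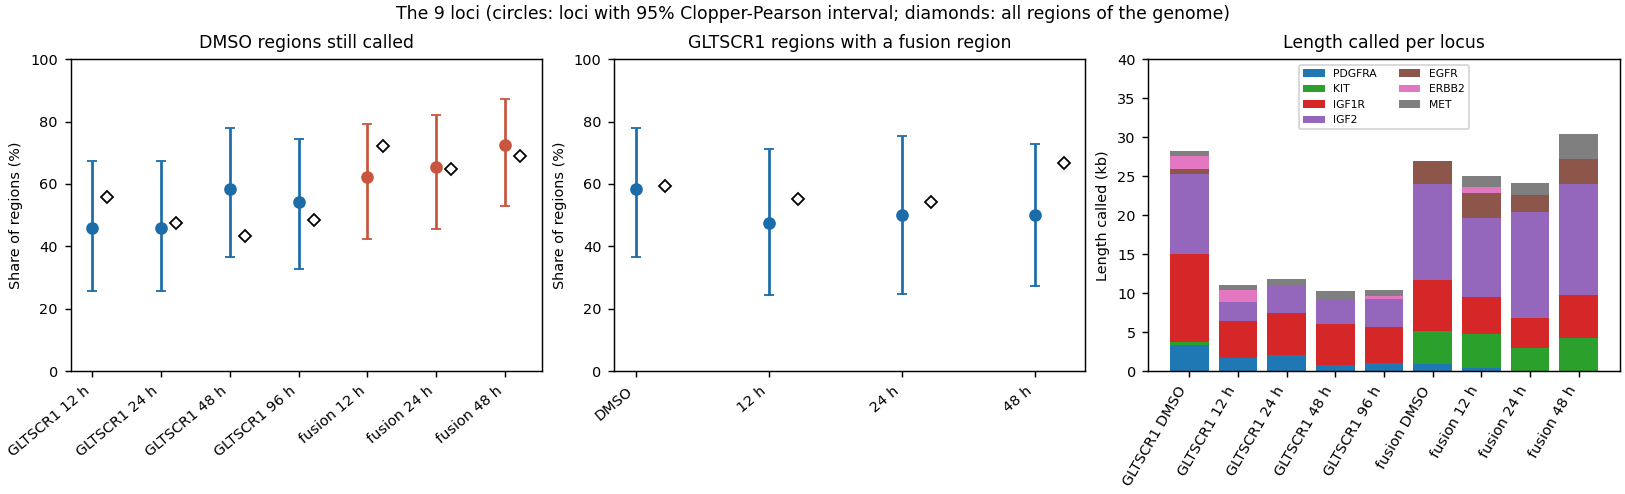
Left and centre, share of regions (%) in the 9 loci still called after DMSO and share of GLTSCR1 regions with a fusion region, as circles with 95% intervals beside the share over the genome as diamonds; right, length called (kb) per list, stacked by gene. Every interval includes its diamond, and the GLTSCR1 bars go from 28.2 kb in DMSO to between 10.3 and 11.8 kb later.

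Around these receptors, 68 other genes of the same pathways were looked at by role, all of them matched in the gene table: 27 ligands, 13 receptors, 10 proteins named for IGF binding, and 18 adaptors and brakes. At an end, 24 of the 68 (35.3%) had GLTSCR1 in DMSO, near the 31.1% of all genes. Later 30.9%, 19.1%, 19.1% and 17.6% had it, beside 26.6%, 14.7%, 11.1% and 15.2%, so the lower later counts run alongside those of all genes. For the fusion the 4 lists gave 29.4%, 29.4%, 29.4% and 33.8% of the 68, beside 19.3%, 18.6%, 16.6% and 18.6%. Of the 18 adaptors and brakes, 12 (66.7%) had GLTSCR1 in DMSO and 10, 7, 5 and 4 (22.2%) later. SPRY4, an inhibitor of RAS to MAPK signalling, and DUSP6, a phosphatase that switches ERK off, had both antibodies in all lists. SPRY4 had GLTSCR1 folds of 8.67, 6.02, 8.91, 6.43 and 7.16, and DUSP6 had fusion folds of 5.78, 4.43, 4.5 and 4.24. The adaptor gene SHC1 had GLTSCR1 in all 5 lists (11 in DMSO).

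The ligand side had its own members with both antibodies throughout. PDGFA, a ligand of PDGFRA, had GLTSCR1 folds of 14.1, 7.76, 6.59, 8.12 and 14.8 and fusion folds of 11.9, 12.3, 15.8 and 14.6. KITLG, the ligand of KIT, had GLTSCR1 folds of 5.42, 6.94, 4.40, 4.15 and 6.36 and fusion folds of 9.05, 8.76, 7.26 and 4.97. The naming rule took only genes called in every list of an antibody, so the calls of PDGFA and KITLG throughout follow from that choice. Over all 27 ligands, 2 had GLTSCR1 in all 5 lists and 3 the fusion in all 4, beside 6.29% and 8.92% of all genes. At the start of PDGFRA the fusion, and at that of KIT GLTSCR1, was in no later list. The other PDGF genes, chosen after their values were seen, differed from PDGFA: PDGFC had an end region in no list, PDGFB had the fusion at 24 h alone (3.60), and PDGFD had the fusion in all 4 lists and GLTSCR1 in DMSO only. Of the 27 ligands, 6 (22.2%) had GLTSCR1 in DMSO and 6 the fusion, beside 31.1% and 19.3% of all genes. Of the 13 other receptors, 3, 2, 1, 0 and 1 had GLTSCR1 over the 5 lists (23.1%, 15.4%, 7.69%, 0% and 7.69%). That was below the share of all genes in every list (31.1%, 26.6%, 14.7%, 11.1% and 15.2%). The fusion was at 3, 4, 3 and 4 of them (23.1%, 30.8%, 23.1% and 30.8%), beside 19.3%, 18.6%, 16.6% and 18.6%. INSR, the insulin receptor gene, resembled KIT and EGFR, with the fusion in all 4 lists (5.73, 4.72, 3.89 and 5.01) and GLTSCR1 in DMSO only (3.65).

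In the group named for IGF binding, the 3 genes with GLTSCR1 in all 5 lists were IGF2BP1, IGF2BP2 and IGF2BP3, which encode RNA-binding proteins and not carriers of the growth factor. Their DMSO folds for GLTSCR1 were 16.4, 10.2 and 9.46. For the fusion, IGF2BP1 and IGF2BP3 were called in all 4 lists (5.44 and 5.50 in DMSO). None of the 7 IGFBP genes, whose products do bind IGF, was in that group. Peak lists cannot check the cell type. Of 5 synovial sarcoma marker genes, TLE1, BCL2, TWIST1 and ZIC2 had a fusion end region in all 4 lists, beside 8.92% of all genes, and CD99 had one in none.

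**Figure D5:**
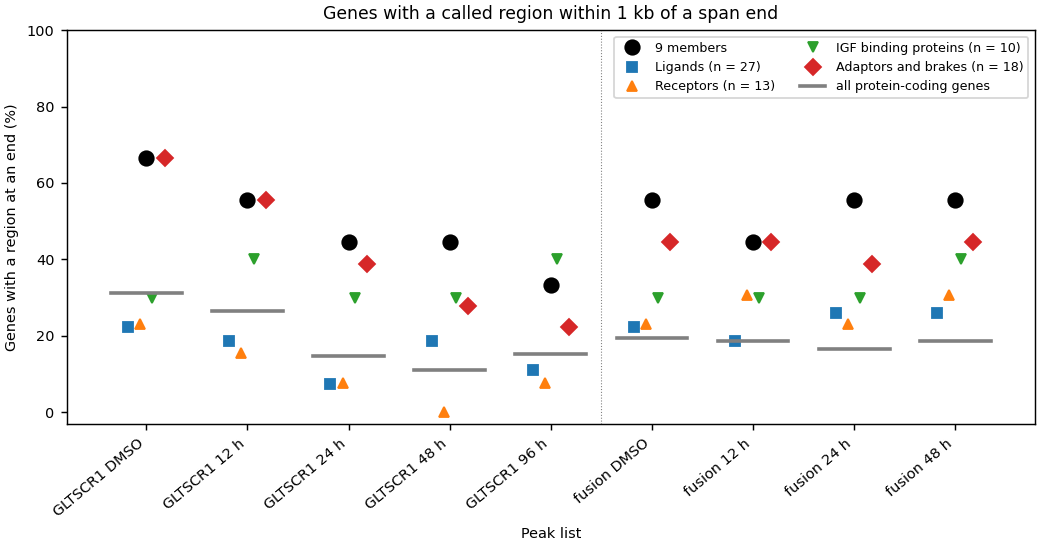
Share of genes (%) with a called region at an end in each of the 9 lists, for the 9 genes (black circles), the 4 role groups of other pathway genes and all protein-coding genes (grey bars). The 9 genes lie above the grey bar in every list, at 6 of 9 against 31.1% in GLTSCR1 DMSO and 5 of 9 against 18.6% in fusion 48 h.

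Genes with the same pattern of end calls over the 9 lists were counted for each member, and the likest were those with the smallest mean difference in percentile over the lists with a call. PDGFRA shared its 9 calls with 84 other genes, of which XPO1 (5.69 points over 6 lists) and DDX6 (6.53) were likest. KIT and EGFR shared theirs with 155 others, with ABCA7 (8.55) and C16orf74 (10.1) likest to KIT and PSMG3 (6.18) and SYBU (7.61) likest to EGFR over 5 lists. IGF1R shared its pattern with 28 genes, led by TANC2 (17.9) and MRGBP (19.3), and IGF2 with 39, led by LOC124904106 (7.25) and NPR2 (10.4), each over 8 lists. MET had 1, ZCCHC2, at 33.0 points over 7 lists, so its ranks were not alike.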

How the data were processed

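Each library's deposited file was a peak list on GRCh38 per the submitters' processing notes, which name BWA, Picard and MACS2 among other tools without versions. Peaks were called by the authors for each library, per the peak names in the file. For each summit the authors gave a fold enrichment (a linear ratio), −log10 p and −log10 q values, and a score of 10 times −log10 q that was not used further. The lowest region −log10 q was 3 in every list.

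From these, entries with the same coordinates were joined into 1 region with the values of the strongest summit, on chromosomes 1 to 22, X and Y. Regions were set against gene spans of GRCh38.p14 with Python 3.11.15, pandas 2.3.3 and NumPy 2.4.6, and an overlap of 1 bp counted. Starts came from the RefSeq promoter table. Intervals are exact Clopper-Pearson 95% intervals (SciPy 1.17.1); neighbouring regions are not independent. Figures used matplotlib 3.10.9. The code was tested on simulated data. All 9 genes are named, with the strongest region per list and zone; other pathway genes are named, up to 2 per antibody and role, by highest DMSO fold among those called in every list of the antibody. Others were named after their values were seen. One gene that the rule names is not reported here. The genes, lists and rules were chosen with earlier results of these data known. Alternatives were other windows, flanks, overlaps and −log10 q, lists of equal length and merging of regions; leaving out the IGF2 locus was added after seeing the data.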

Additional observations from a re-analysis of the deposited data

How the results depend on the processing

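Of 208 values recomputed under the alternatives, 189 stayed within 1.5 times the reported count or inside its interval, and 19 did not. The intervals of the shares were wide, so 189 does not measure stability. Strongest summits within 250 bp took the fusion share still called at 12 h from 62.1% to 44.8%. That is inside its interval, 42.3 to 79.3. With such summits all 11 shares were lower, and 6 were counted as staying. The 6 genes with a GLTSCR1 end region in DMSO became 4 with lists of equal length, also counted as staying. Placing by strongest summit left every region count unchanged. A window of 500 bp gave 3 genes with a GLTSCR1 end region at 12 h. A flank of 50 kb gave 5 genes with a flank region in the GLTSCR1 lists of 12, 24, 48 and 96 h. It also gave 5 in the fusion lists of DMSO and 24 h. With 20 kb each of these lists had 3. A flank of 10 kb gave 3 in the fusion list of 12 h, where 20 kb gave 5. A wider flank makes a call likelier for any gene, and the shares of all genes under the alternatives were not computed. Placing genes by the strongest summit gave 1 gene with a fusion flank region in DMSO in place of 3. It gave 3 with a fusion end region at 48 h in place of 5. In the fusion list of 12 h, −log10 q of at least 5 left 2 genes at the ends, 3 in the flank and 21 regions, and lists of equal length left 2 at the ends. Strongest summits within 250 bp, in place of overlap, gave 25.0% of GLTSCR1 regions still called at 96 h and 17.2% and 34.5% of fusion regions at 24 and 48 h. They gave 21.1% and 20% of GLTSCR1 regions with a fusion region at 12 and 48 h. Where only the strongest summit of a wide region counts, fewer can match. No paired analysis was possible because each group held 1 library. No replicate could be left out, read depth is unknown, and no group was large enough to look for a library far from the others.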
